A study of Mus musculus with 12 samples.

Results

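Transcripts of the mitochondrial respiratory chain genes were examined in the brain of 5xFAD and WT mice. Members were all rows of the count table whose gene is protein-coding in GENCODE M21 and has a symbol starting with Nduf, Sdha to Sdhd, Uqcr, Cox4 to Cox8 or Atp5. This rule found 169 of the 48033 rows, from 62 of the 97 genes in the annotation that match it. The other 35 genes have no row among those analysed. Each row is 1 transcript, and 1 of the 169 had no count in any library.

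The 12 libraries came from 7-month-old mice on the C57BL/6J background, with 3 libraries each of WT hippocampus, 5xFAD hippocampus, WT cerebral cortex and 5xFAD cerebral cortex. WT mice are non-transgenic and of the same age. 5xFAD mice carry human APP and presenilin 1 transgenes with several familial Alzheimer's disease mutations, driven by elements of the neuronal Thy1 gene. Both regions were taken from each mouse, and whether libraries with the same number in the 2 regions are the same mouse is not stated.

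Library totals were 3517967 to 5014389 counts, and member rows took 0.219% to 0.275% of them. The series states 2 females and 1 male in each genotype, but Xist was high, at a summed 7422 to 10280 CPM (counts scaled to library size), in libraries 1 and 2 of 5xFAD in both regions and at most 5.69 CPM in the other 8. Y-linked rows had 0 counts in those 4 libraries and 1074 to 1661 in the other 8. Genotype and this difference cannot be told apart with all libraries, so each comparison of genotypes is also given with the 8 libraries that hold Y-linked counts. Of the hippocampal marker list, 2 of 8 genes had rows, which summed to 104 to 125 CPM in the hippocampus and 25.6 to 48.0 CPM in the cortex. Of the cortical list, 5 of 8 genes had rows, which summed to 279 to 499 CPM in the cortex and 163 to 258 CPM in the hippocampus. Bulk tissue was sequenced, so fewer cells of a type and less RNA per cell cannot be told apart in any value here.

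The respiratory chain sits in the inner mitochondrial membrane. Complex I (NADH dehydrogenase, most Nduf genes) and complex II (succinate dehydrogenase, the Sdh genes) pass electrons to coenzyme Q. Complex III (the Uqcr genes) passes them on to cytochrome c, and complex IV (cytochrome c oxidase, the Cox genes) passes them to oxygen. Complex V (ATP synthase, the Atp5 genes) uses the proton gradient that complexes I, III and IV build to make ATP. Neurons depend heavily on this supply, and lower activity of the chain has been described in the brain in Alzheimer's disease. Most subunits are encoded in the nucleus and a few in mitochondrial DNA. None of the 13 mitochondrially encoded subunits has a row in the table.

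The rows are mostly not the messenger RNAs of these proteins. By annotation, 99 are retained-intron transcripts, 68 are processed transcripts without an open reading frame and 2, both of Atp5o, are protein-coding. Complex I holds 66 rows of 20 genes, complex II 9 rows of 2 genes, complex III 16 rows of 7 genes, complex IV 21 rows of 12 genes and complex V 41 rows of 13 genes. The remaining 16 rows belong to 8 assembly factors, proteins that help to build a complex without staying in it. Ndufa4 and its homologue Ndufa4l2 were counted in complex IV, and the Ndufaf genes among the assembly factors. A gene had up to 8 rows, reached by Atp5b and Atp5j, and 19 genes had 1. Rows were 136 to 6310 bases long, with a median of 553 bases. At the median row, 64.6% of the bases also lay in exons of the gene's protein-coding transcripts. This share ran from 48.6% in complex V to 88.2% among the assembly factors. A read from such bases could belong to the mature mRNA or to the row, and how the counting divided reads between them is not given in the sources used here.

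In 23 rows, a whole intron between coding exons was kept in the transcript, 28 introns in all, and 27 of these started with GT and ended with AG. The exception was an intron of Ndufaf4 that started with GC. The splice sites of 5 such introns are printed because kept introns are part of what separates these rows from the mRNA. The Uqcrc1 row keeps 4 whole introns, of which 1 is printed. Atp5b, Cox6c, Atp5l and Uqcrc1 are the 4 tested rows with the smallest spread between libraries, and Cox5b returns in the comparisons below. Each sequence is from the GENCODE M21 transcript (GRCm38), 30 bases, read 5′ to 3′ on the strand of the gene. The capitals mark the first 2 bases of the intron at the 5′ site and the last 2 at the 3′ site.
Atp5b ENSMUST00000139295, 5′ site (chr10:128084462-128084491, plus strand): aaaccaaacaGTaagtttctctcactgcat
Atp5b ENSMUST00000139295, 3′ site (chr10:128085071-128085100, plus strand): ttcctccctgaaccttacAGatttgctcct
Cox6c ENSMUST00000127999, 5′ site (chr15:35937135-35937164, minus strand): tgcctataagGTatgtgctttaggtcacaa
Cox6c ENSMUST00000127999, 3′ site (chr15:35935404-35935433, minus strand): cgggctatgctaccttttAGtttggcgtgg
Atp5l ENSMUST00000216815, 5′ site (chr9:44914631-44914660, minus strand): tacagttaagGTaactacgtgctaaatgaa
Atp5l ENSMUST00000216815, 3′ site (chr9:44913457-44913486, minus strand): tctgcttttttcttttccAGgaagctgtgc
Uqcrc1 ENSMUST00000193332, 5′ site (chr9:108947470-108947499, plus strand): tggtggagtgGTaagtaccaggaacagcca
Uqcrc1 ENSMUST00000193332, 3′ site (chr9:108947578-108947607, plus strand): ctgatccttgcctctggcAGcacctgtcaa
Cox5b ENSMUST00000191790, 5′ site (chr1:36691680-36691709, plus strand): gcttctggagGTacgtgaccagctgggcgg
Cox5b ENSMUST00000191790, 3′ site (chr1:36692191-36692220, plus strand): gctcatttttcttcttctAGgtggtgtccc
The introns between these sites are 118 bases long in Uqcrc1, 521 in Cox5b, 619 in Atp5b, 1184 in Atp5l and 1741 in Cox6c.

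The summed level of all member rows was similar in the 4 groups. It was 2609 ± 147 CPM in WT hippocampus, 2490 ± 199 in 5xFAD hippocampus, 2493 ± 228 in WT cortex and 2375 ± 299 in 5xFAD cortex (SD, n = 3 each). The ranges of the libraries overlapped between all 4 groups. Sums are given without a test, since the members were chosen as a set. Complex I, which takes up NADH, summed to 790 ± 165 CPM in WT hippocampus, 763 ± 16.8 in 5xFAD hippocampus, 736 ± 18.4 in WT cortex and 793 ± 64.2 in 5xFAD cortex. Complex II, which takes up succinate, was between 80.1 and 124.7 CPM in all 12 libraries. Complex IV summed to 302 ± 61.2, 249.9 ± 23.7, 223 ± 23.3 and 269.9 ± 60.2 CPM in the same order of groups. In each of these 3 complexes, WT and 5xFAD libraries overlapped in the hippocampus.

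Complex III summed to 162 ± 7.32 CPM in WT hippocampus (157 to 171) and 173 ± 1.01 in 5xFAD hippocampus (172 to 174), and these 2 groups did not overlap. In the cortex the order was the other way round, with 179 ± 10.6 CPM in WT (168 to 189) and 156 ± 12.8 in 5xFAD (144 to 169), and these groups overlapped. The closest hippocampal libraries were at 170.8 CPM in WT and 171.9 CPM in 5xFAD hippocampus 2. That 5xFAD library had 67 counts of the Uqcr11 row ENSMUST00000138428, which was at 0 in 5xFAD hippocampus 1 and 3. Without this row the hippocampal groups would overlap. In WT cortex 2 the row had 125 counts. The assembly factors summed to 123 ± 25.3 CPM in WT hippocampus, 129 ± 38.7 in 5xFAD hippocampus, 77.2 ± 21.1 in WT cortex and 111 ± 35.6 in 5xFAD cortex. WT cortex had the lowest mean of the 4 groups, and its libraries (60.9 to 101 CPM) overlapped with those of WT hippocampus and 5xFAD cortex but lay below those of 5xFAD hippocampus (106 to 173 CPM).

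Complex V summed to 1141 ± 133 CPM in WT hippocampus, 1073 ± 139 in 5xFAD hippocampus, 1192 ± 238 in WT cortex and 953 ± 179 in 5xFAD cortex. Much of this came from 2 rows, of Atp5b, the catalytic β subunit, and of Atp5o, a subunit of the stalk that holds the catalytic head still. Without them the sums were 605 ± 39.0, 675 ± 54.9, 555 ± 50.3 and 560 ± 31.0 CPM, so that the mean in the 5xFAD cortex was no longer below that in the WT cortex.

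**Figure D1:**
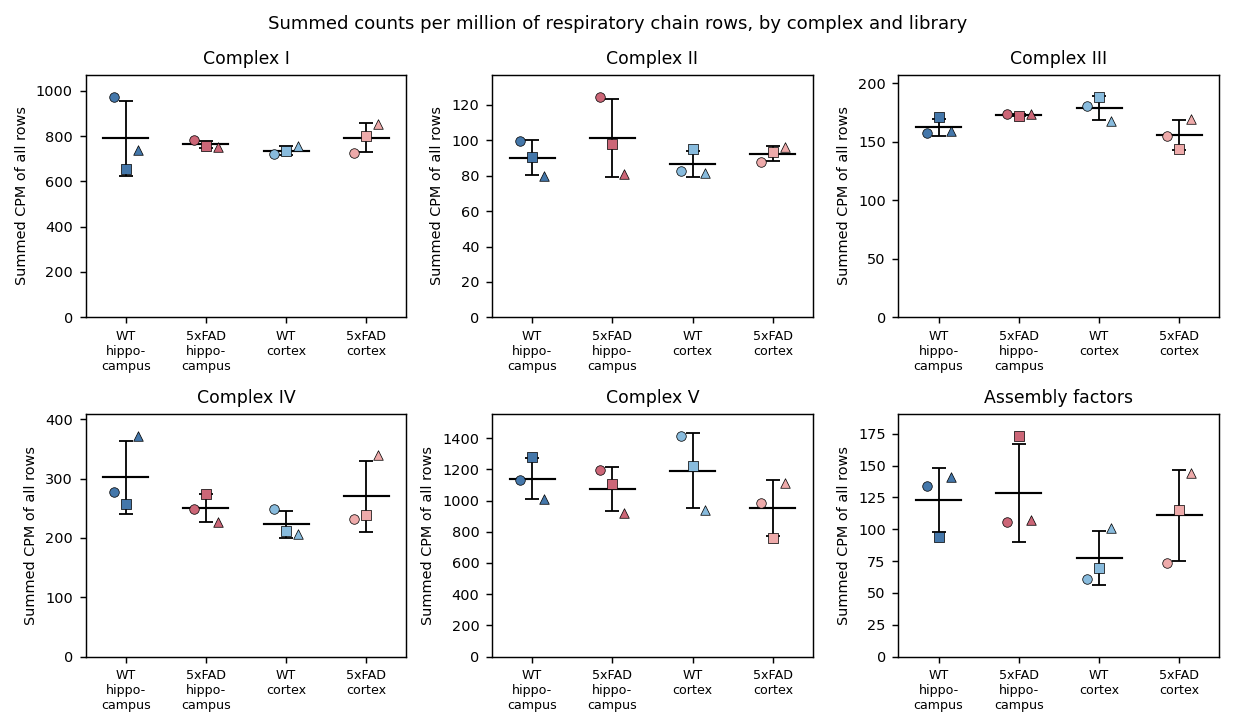
Summed CPM (y axis, from 0) of all rows of each complex and of the assembly factors, by group (x axis). Circles, squares and triangles are libraries 1, 2 and 3, horizontal lines the group means and error bars 1 SD (n = 3); complex III ranges from 144 to 189 CPM and complex V, with the widest groups, has means from 953 to 1192 CPM.

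The retained-intron row of Atp5b ENSMUST00000126040 (chr10:128085746-128090160, plus strand, 1131 bases, 74.2% in coding exons) had the highest level per length of all members, at a mean of 336 CPM per kilobase over the 12 libraries. It had 2358, 1971 and 1949 counts in WT hippocampus, 1305, 1567 and 1249 in 5xFAD hippocampus, 2086, 1916 and 1030 in WT cortex and 1712, 516 and 2128 in 5xFAD cortex. The 3 hippocampal 5xFAD libraries were below the 3 WT ones, at a log2 fold change of -0.46 (SE 0.17, edgeR adjusted p = 0.638), and the cortical groups overlapped. Next in level per length came Atp5o ENSMUST00000139277, at 157 CPM per kilobase, Atp5f1 ENSMUST00000143022, a further stalk subunit, at 106, and Cox4i1 ENSMUST00000181172, a nuclear subunit of complex IV, at 75.9.

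The other rows with high counts fell into steady and unsteady ones. Cox6c ENSMUST00000127999, of a nuclear complex IV subunit (3038 bases), had 455, 486 and 465 counts in WT hippocampus, 394, 492 and 406 in 5xFAD hippocampus, 317, 407 and 307 in WT cortex and 396, 410 and 467 in 5xFAD cortex. Uqcrc1 ENSMUST00000193332, of a large complex III subunit on the matrix side, had 165 to 224 counts in all 12 libraries, and Uqcrh ENSMUST00000127175, of the complex III hinge protein that sits next to cytochrome c1, had 66 to 108. The log2 fold changes of the Uqcrc1 and Uqcrh rows lay between -0.10 and 0.13 in the comparisons of genotypes and regions. That of the Cox6c row was 0.29 between genotypes in the cortex and 0.28 between regions in WT mice, and 0.03 and 0.02 in the other 2 comparisons. In contrast, Cox4i1 ENSMUST00000181172 had 246, 132 and 688 counts in WT hippocampus, 141, 134 and 35 in 5xFAD hippocampus, 218, 28 and 50 in WT cortex and 94, 57 and 471 in 5xFAD cortex. Its counts within a single group differed more than the group means did.

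For complex I, the highest row was Ndufs1 ENSMUST00000140612, of the largest core subunit, which carries iron-sulfur clusters. It had 188 to 451 counts in WT hippocampus, 117 to 319 in 5xFAD hippocampus, 205 to 385 in WT cortex and 281 to 389 in 5xFAD cortex. For complex II, Sdhb ENSMUST00000125780, of the iron-sulfur subunit, had 108 to 227 counts over the 12 libraries. Sdha ENSMUST00000161434, of the flavoprotein that oxidises succinate, had 55 to 203, and both of its extremes were in the 5xFAD hippocampus. Among the assembly factors, Ndufaf4 ENSMUST00000146721 had 37 to 340 counts in WT hippocampus, 177 to 357 in 5xFAD hippocampus, 30 to 215 in WT cortex and 108 to 214 in 5xFAD cortex. All these groups overlapped.

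Counts were tested per row with edgeR's quasi-likelihood test and Benjamini-Hochberg adjustment over all rows that passed a filter on low counts. No member row had an adjusted p under 0.05 in any of the 5 comparisons. In the hippocampus, 126 member rows were tested between 5xFAD and WT and 0 were called, where 0.0183% of all 21894 rows were called. Members with an unadjusted p under 0.05 numbered 8, or 6.35%, of which 2 were higher and 6 lower in 5xFAD; the share among all rows was 7.58%. Groups did not overlap in 22 members, or 17.5%, against 15.8% of all rows. The median log2 fold change was 0.09 over the members and 0.02 over all rows. With only the libraries that hold Y-linked counts, the median was -0.07. That fit sets 1 5xFAD library, taken to vary like the WT ones, against 3 WT libraries, and it called 0 members and 14 of all rows tested in it.

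By complex, the medians in the hippocampus were -0.02 in complex I (50 rows tested), 0.23 in complex II (6), 0.23 in complex III (14), 0.03 in complex IV (14), 0.09 in complex V (33) and -0.04 among the assembly factors (9). In complex III, 11 of the 14 rows had a positive fold change, and in complex I as many were positive as negative, 25 each.

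Atp5j, coupling factor 6, is part of the peripheral stalk of ATP synthase. Its row ENSMUST00000146103 (chr16:84827874-84831607, minus strand, 526 bases, 81.0% in coding exons) had 215, 212 and 159 counts in WT hippocampus and 96, 109 and 103 in 5xFAD hippocampus. In the cortex it had 96, 108 and 104 counts in WT libraries and 142, 121 and 186 in 5xFAD. Every 5xFAD library was thus below every WT library in the hippocampus and above every WT library in the cortex. The log2 fold change was -0.77 in the hippocampus (SE 0.20, edgeR adjusted p = 0.564) and 0.50 in the cortex (SE 0.21, edgeR adjusted p = 0.912). Summed over the 8 rows of Atp5j, the level was 77.1 to 85.8 CPM in WT hippocampus and 63.6 to 74.3 CPM in 5xFAD hippocampus, at a log2 fold change of -0.23 (SE 0.15, edgeR adjusted p = 0.675). In the cortex these sums overlapped, at 63.2 to 72.3 CPM in WT and 68.1 to 85.3 CPM in 5xFAD. The log2 fold change there was 0.16 (SE 0.15, edgeR adjusted p = 0.864).

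Among the rows with the smallest p-values that were higher in 5xFAD hippocampus, those of Atp5mpl and Ndufv1 did not overlap with WT. Atp5mpl ENSMUST00000223435, of a small membrane subunit of ATP synthase, had 12, 12 and 9 counts in WT libraries and 20 in each 5xFAD library, a log2 fold change of 1.01 (SE 0.29, edgeR adjusted p = 0.612). Ndufv1, a core subunit that binds NADH, had 74, 64 and 55 counts in WT libraries and 78, 86 and 76 in 5xFAD in its row ENSMUST00000134049, a log2 fold change of 0.47 (SE 0.21, edgeR adjusted p = 0.668).

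Lower in the 5xFAD hippocampus was Uqcr10 ENSMUST00000151559, of a small complex III subunit, with 106, 99 and 84 counts in WT libraries and 21, 46 and 49 in 5xFAD. Its log2 fold change was -1.17 (SE 0.34, edgeR adjusted p = 0.612), opposite in sign to the median of complex III. Ndufb2 ENSMUST00000128064, of an accessory subunit in the membrane arm of complex I, had 59, 53 and 50 counts in WT libraries and 33, 30 and 31 in 5xFAD, at -0.63 (SE 0.23, edgeR adjusted p = 0.629). The other 2 tested rows of Ndufb2 had fold changes of 0.74 and 0.35, and the sum over its 4 rows one of -0.08 (SE 0.21, edgeR adjusted p = 0.929). In the cortex the Uqcr10 and Ndufb2 rows had overlapping groups, with 108, 73 and 84 against 81, 75 and 68 counts for Uqcr10 and 56, 53 and 30 against 49, 31 and 31 for Ndufb2.

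In the cortex, 122 member rows were tested between 5xFAD and WT and 0 were called by edgeR, where 0.0545% of all 21999 rows were called. DESeq2 called 1 member, the Atp5o row described next. Members with an unadjusted p under 0.05 numbered 7 (5.74%; 4 higher and 3 lower), and the share among all rows was 5.34%. Groups did not overlap in 11 members, or 9.02%, against 12.2% of all rows. The median log2 fold change was 0.10 over the members and 0.002 over all rows. The libraries that hold Y-linked counts again set 1 5xFAD library against 3 WT ones, and this fit called 0 rows of any kind, so that its 0 member calls are no sign of stability. By complex, the medians were 0.12 in complex I (48 rows), -0.22 in complex II (6), -0.19 in complex III (14), 0.22 in complex IV (14), 0.09 in complex V (32) and 0.23 among the assembly factors (8). Complex III thus had 9 of 14 rows with a negative fold change in the cortex, beside 11 of 14 with a positive one in the hippocampus. Over all rows, 50.2% had a positive fold change in the cortex and 51.9% in the hippocampus. The 14 rows come from 7 genes, and rows of a gene may share reads, so they are not independent.

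Atp5o encodes the oligomycin sensitivity-conferring protein. Its protein-coding row ENSMUST00000139277 (chr16:91925313-91931274, minus strand, 710 bases) had 1275, 1286 and 451 counts in WT cortex and 316, 108 and 369 in 5xFAD cortex. Each 5xFAD library was below each WT library, at a log2 fold change of -1.95 (SE 0.49), with an adjusted p of 0.844 from edgeR and 0.02 from DESeq2. The same row had 122, 994 and 0 counts in WT hippocampus and 628, 246 and 0 in 5xFAD hippocampus. A count of 0 allows up to 0.674 CPM in WT hippocampus 3 and 0.751 CPM in 5xFAD hippocampus 3 (3 counts over the library total, for counting error only), while the other 10 libraries were at 108 counts or more. The second protein-coding row of the gene, ENSMUST00000154661, had 4 to 20 counts in all 12 libraries. The retained-intron row ENSMUST00000132049 had 45, 62 and 42 counts in WT hippocampus, 66, 60 and 64 in 5xFAD hippocampus, 40, 50 and 43 in WT cortex and 41, 30 and 40 in 5xFAD cortex. So 1 gene held a row that went from 0 to 1286 counts and another that stayed between 30 and 66.

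Ndufaf5, an assembly factor that modifies the core subunit Ndufs7, had the highest positive fold change in the cortex. Its processed transcript ENSMUST00000125913 had 7, 41 and 5 counts in WT cortex and 48, 133 and 160 in 5xFAD cortex, without overlap, and a log2 fold change of 2.76 (SE 0.82, edgeR adjusted p = 0.851). In the hippocampus it had 93, 134 and 100 counts in WT libraries and 9, 168 and 54 in 5xFAD, where the groups overlapped. Ndufs7 itself, in the processed transcript ENSMUST00000157063, had 179, 255 and 173 counts in WT cortex and 140, 125 and 133 in 5xFAD cortex, at -0.62 (SE 0.17, edgeR adjusted p = 0.844). Ndufa10 ENSMUST00000185466, of an accessory subunit of complex I, had 60, 20 and 19 counts in WT cortex and 64, 145 and 212 in 5xFAD cortex, at 2.08 (SE 0.62, edgeR adjusted p = 0.851). Its WT hippocampal libraries had 622, 20 and 89 counts.

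The row of Cox5b with the intron printed above, ENSMUST00000191790, had 36, 42 and 30 counts in WT cortex and 62, 47 and 64 in 5xFAD cortex, at a log2 fold change of 0.65 (SE 0.20, edgeR adjusted p = 0.851). In the hippocampus, WT had 57, 47 and 50 and 5xFAD 46, 35 and 49, and the groups overlapped. Atp5h, subunit d of the peripheral stalk, had 138, 17 and 69 counts in WT cortex and 17, 7 and 17 in 5xFAD cortex in its processed transcript ENSMUST00000137563, at -2.53 (SE 0.78, edgeR adjusted p = 0.853). Both groups held a library with 17 counts.

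**Figure D2:**
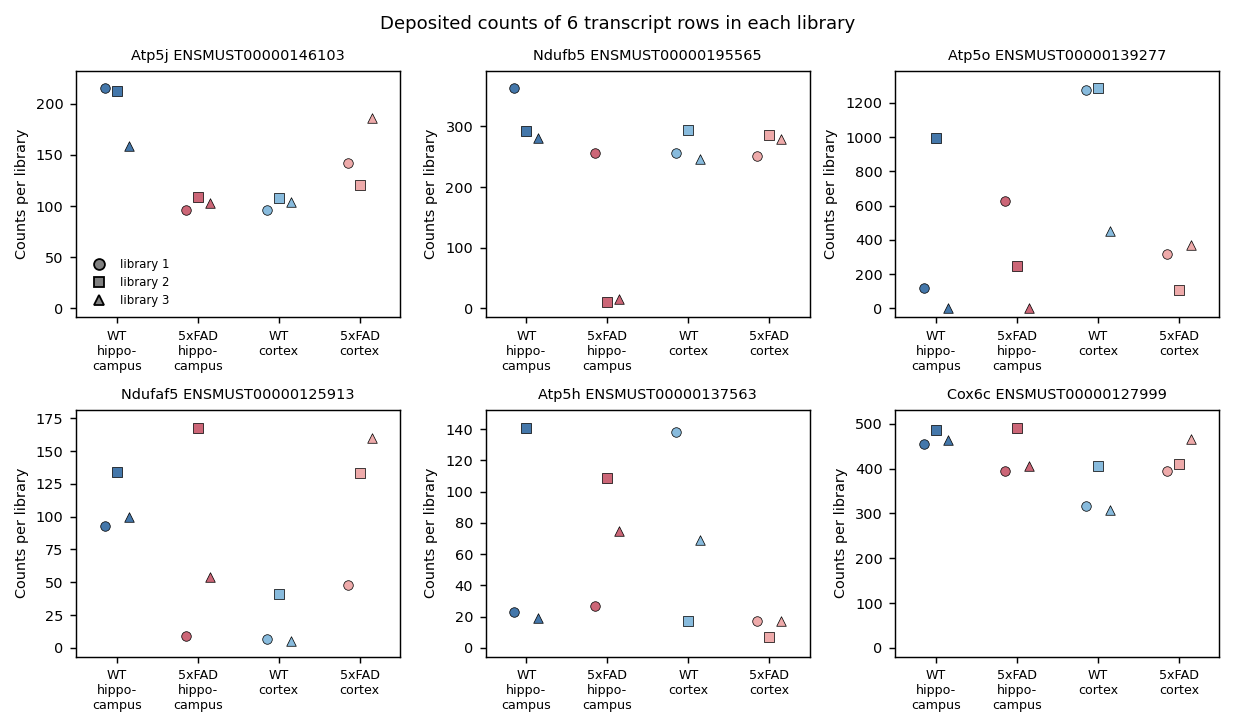
Deposited counts (y axis, not normalized) of 6 rows in each of the 12 libraries, by group (x axis); circles, squares and triangles are libraries 1, 2 and 3. Atp5j has low counts in 5xFAD hippocampus and WT cortex, Ndufb5 is at 10 and 16 in 2 libraries of 5xFAD hippocampus, Atp5o is at 0 in library 3 of both hippocampal groups, Ndufaf5 and Atp5h spread widely within groups, and Cox6c stays between 307 and 492.

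Summed marker rows of other cell types stand beside these results. Of the microglial marker list, 2 of 8 genes had rows, which summed to 28.8 to 40.7 CPM in WT and 45.1 to 201 CPM in 5xFAD hippocampus, and to 45.8 to 59.4 CPM in WT and 24.9 to 239.5 CPM in 5xFAD cortex. The astrocytic rows (5 of 6 genes) summed to 1427 to 1551 CPM in WT and 529 to 1191 CPM in 5xFAD hippocampus, with overlap in the cortex, and Gfap was at 0 counts in WT hippocampus and 5xFAD cortex. The oligodendrocytic rows (5 of 6 genes) summed to 349 to 441 CPM in WT and 504 to 578 CPM in 5xFAD hippocampus, and to 298.5 to 476 CPM in WT and 535.5 to 610 CPM in 5xFAD cortex. The neuronal rows (8 of 8 genes) summed to 1368 to 7028 CPM and overlapped between the genotypes in both regions. Endothelial and choroid plexus rows (4 of 6 genes) summed to 17.3 to 62.8 CPM, with Folr1 at 0 counts in every group. The part of these shifts in the member rows was not tested.

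Between the regions, 125 member rows were tested in WT mice and 0 were called by edgeR, where 0.986% of all 22007 rows were called. DESeq2 called 1, the Ndufaf5 row, at an adjusted p of 0.011. Members with an unadjusted p under 0.05 numbered 8 (6.4%), of which 7 were higher in the hippocampus, and the share among all rows was 12.8%. Groups did not overlap in 18 members, or 14.4%, against 20.6% of all rows. The median log2 fold change, hippocampus against cortex, was 0.07 over the members and -0.01 over all rows. Among the assembly factors 7 of 8 rows were positive, with a median of 0.37, and the medians of the complexes lay between -0.08 in complex III and 0.08 in complex V.

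Ndufaf5 ENSMUST00000125913 had the counts given above, 93 to 134 in WT hippocampus and 5 to 41 in WT cortex, a log2 fold change of 2.53 (SE 0.69, edgeR adjusted p = 0.199). Summed over its 2 rows, Ndufaf5 was at 26.2, 35.6 and 28.9 CPM in WT hippocampus and 8.11, 14.4 and 5.97 in WT cortex, at 1.64 (SE 0.33, edgeR adjusted p = 0.05003). The Atp5j row ENSMUST00000146103 was higher in WT hippocampus by 0.74 (SE 0.19, edgeR adjusted p = 0.172), again without overlap. Ndufs3, a core subunit, had 1 row that was higher in the hippocampus and 1 that was lower. ENSMUST00000139400 had 48, 70 and 54 against 37, 31 and 19 counts, and ENSMUST00000152059 had 58, 40 and 58 against 98, 67 and 60. Ndufb10, an accessory subunit chosen here after its values were seen, had 224, 190 and 194 counts in WT hippocampus and 10, 181 and 7 in WT cortex in its row ENSMUST00000144285, a log2 fold change of 1.58 (SE 1.07, edgeR adjusted p = 0.627). Without WT cortex 2 the fold change of this row was 4.31 and the adjusted p from edgeR 0.0372, the only edgeR call of a member when a library was left out in this comparison.

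In 5xFAD mice, 124 member rows were tested between the regions and 0 were called by edgeR, where 0.0182% of all 22016 rows were called. DESeq2 called 1, the Atp5h row ENSMUST00000137563, at an adjusted p of 0.0167. Members with an unadjusted p under 0.05 numbered 9 (7.26%; 6 higher and 3 lower in the hippocampus), and the share among all rows was 9.38%. Groups did not overlap in 18 members, or 14.5%, against 17.1% of all rows. The median log2 fold change was 0.09 over the members and 0.01 over all rows. Complex III had 12 of 14 rows with a positive fold change, with a median of 0.25, where 50.5% of all rows were positive. Its only row with an unadjusted edgeR p under 0.05, Uqcr10 ENSMUST00000151559, was lower in the hippocampus. That row had 21, 46 and 49 counts in 5xFAD hippocampus and 81, 75 and 68 in 5xFAD cortex. The same libraries entered the comparisons of genotypes, so the 4 sets of fold changes are not independent.

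The Atp5h row had 27, 109 and 75 counts in 5xFAD hippocampus against 17, 7 and 17 in 5xFAD cortex, at a log2 fold change of 2.37 (SE 0.57, edgeR adjusted p = 0.278). The retained-intron row of Atp5o, ENSMUST00000132049, was higher in the hippocampus by 0.79 (SE 0.24, edgeR adjusted p = 0.38). Ndufa7 ENSMUST00000173946, of a complex I accessory subunit, had 25, 20 and 16 counts in 5xFAD hippocampus and 45, 38 and 60 in 5xFAD cortex, at -1.21 (SE 0.31, edgeR adjusted p = 0.307). In WT mice this row had 31, 108 and 24 counts in the hippocampus and 50, 11 and 55 in the cortex, with wide overlap.

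**Figure D3:**
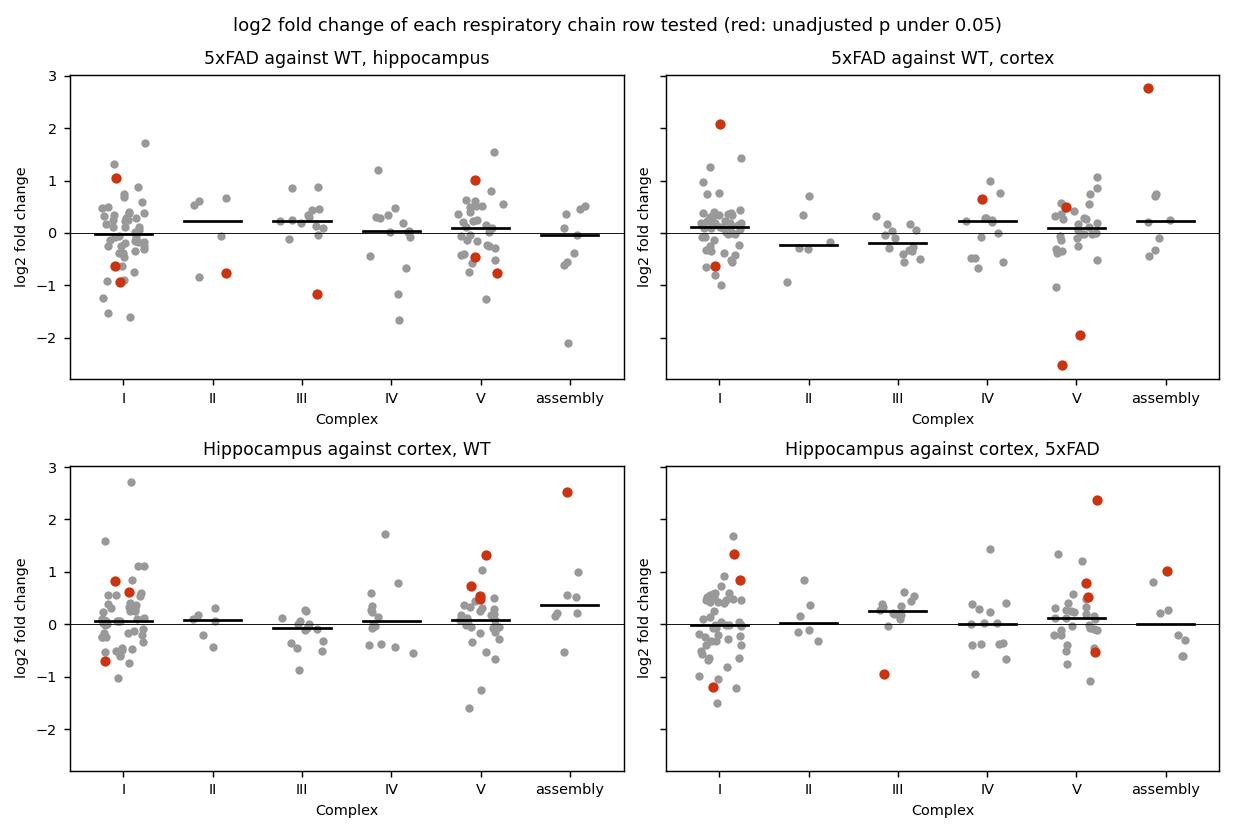
log2 fold change (y axis, edgeR) of each member row tested, by complex (x axis), in the 4 comparisons; each point is 1 row, red points have an unadjusted p under 0.05 and black lines are medians. Points lie on both sides of 0 in every complex and no row passed the adjusted threshold. For 5xFAD against WT, the median of complex III is 0.23 in the hippocampus and -0.19 in the cortex, and that of complex II 0.23 and -0.22.

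Whether genotype acted differently on a row in hippocampus and cortex was tested as an interaction over all 12 libraries. Of 129 member rows from 59 genes 0 were called by edgeR, where 0.00812% of all 24632 rows were called, and DESeq2 called 1, Atp5j ENSMUST00000146103. Members with an unadjusted p under 0.05 numbered 13, or 10.1%, of which 7 were positive and 6 negative, and the share among all rows was 6.89%. They included 6 of the 33 rows of complex V and 5 of the 52 rows of complex I. In complex III 12 of 14 rows were positive, with a median of 0.37, beside 0.03 over all members and -0.01 over all rows. Of all rows, 49.4% were positive. Each interaction contrasts the genotype fold changes of the 2 regions, so this count is not independent of those above. The Atp5j row had the smallest p, with an interaction of -1.28 on the log2 scale (SE 0.26) and an adjusted p of 0.556 from edgeR and 0.0117 from DESeq2. Its second row in this set, ENSMUST00000127651, had 31, 34 and 30 counts in WT hippocampus, 12, 29 and 17 in 5xFAD hippocampus, 19, 24 and 22 in WT cortex and 28, 34 and 35 in 5xFAD cortex, an interaction of -1.13 (SE 0.43, edgeR adjusted p = 0.665). The 2 rows overlap on the genome, so reads may be shared between them.

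Cox5b ENSMUST00000191790 had an interaction of -0.75 (SE 0.28), Ndufs7 ENSMUST00000157063 one of 1.01 (SE 0.38) and Atp5o ENSMUST00000132049 one of 0.79 (SE 0.28), with edgeR adjusted p-values between 0.66 and 0.665. Atp5a1, the α subunit of the catalytic head, had 48, 64 and 83 counts in WT hippocampus and 191, 35 and 281 in 5xFAD hippocampus in its row ENSMUST00000146869, and 59, 110 and 222 in WT cortex and 60, 66 and 78 in 5xFAD cortex. Its interaction was 2.56 (SE 0.98, edgeR adjusted p = 0.665), and both pairs of groups overlapped. In 3 of the 129 members, or 2.33%, 5xFAD and WT libraries did not overlap in either region and differed in opposite directions, against 0.792% of all rows. At 3 rows this share rests on few members.

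Ndufb5, an accessory subunit of complex I, had a single-exon row of 3127 bases, ENSMUST00000195565 (chr3:32737076-32740202, plus strand), with 4.2% of its bases in coding exons. It had 247 to 363 counts in 10 libraries and 10 and 16 counts in 5xFAD hippocampus 2 and 3. Library 1 of that group had 256. With all libraries the interaction was -1.58 (SE 1.27, edgeR adjusted p = 0.862). Without 5xFAD hippocampus 1 it was -4.44 with an edgeR adjusted p of 0.00509, and with only the libraries that hold Y-linked counts, where 5xFAD hippocampus and cortex are library 3 alone and are taken to vary like the WT groups, it was -4.07 with 0.0397. Leaving out 5xFAD hippocampus 2 or 3 gave -1.04 or -1.08. The 2 low libraries are 1 with Xist and 1 with Y-linked counts.

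A further pair of rows had high counts in single libraries. Atp5b ENSMUST00000125992 had 186 counts in WT hippocampus 1, 136 in 5xFAD cortex 2 and 1 to 6 in the other 10 libraries. Uqcr11 ENSMUST00000138428, of the smallest subunit of complex III, had 125 counts in WT cortex 2, 67 in 5xFAD hippocampus 2, 9 in each of 2 libraries and 0 in the other 8. The libraries with high counts had no genotype or region in common.

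The spread between libraries of a group differed among the rows by how much of the row lay in coding exons, a feature the rule did not use. For 50 tested member rows with under 50% of their bases in coding exons, the median within-group SD of log2(CPM + 0.5) was 0.356. For 77 rows with 50% or more it was 0.551. Among all 19338 retained-intron and processed transcripts of protein-coding genes tested, these medians were 0.377 and 0.551. Spearman's rho between the share and the SD was 0.497 and Pearson's r 0.471 over the 127 members, and rho was 0.397 over all such rows. These are descriptions across rows, which share libraries and, within a gene, sequence. The rho between mean counts and the SD was -0.179 over the members and -0.342 over all such rows. The member rows under and over 50% also differed in median length (809 and 550 bases) and in median mean counts (47.8 and 38.8), and the part of length and depth in the spread was not tested. The steadiest were Atp5b ENSMUST00000139295, with an SD of 0.122, and Cox6c, Atp5l and Uqcrc1, with 0.127 to 0.129, all rows with introns. The least steady tested rows, apart from the protein-coding Atp5o row (3.175), were Ndufb10 ENSMUST00000144285 (1.72) and Ndufa10 ENSMUST00000185466 (1.505), with 87.7% and 90.8% of their bases in coding exons. Uqcr11 ENSMUST00000138428 and Atp5b ENSMUST00000125992, which were not in this set, had SDs of 2.40 and 2.11. Ndufb5 ENSMUST00000195565 stood apart, with 4.2% in coding exons and an SD of 1.22.

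**Figure D4:**
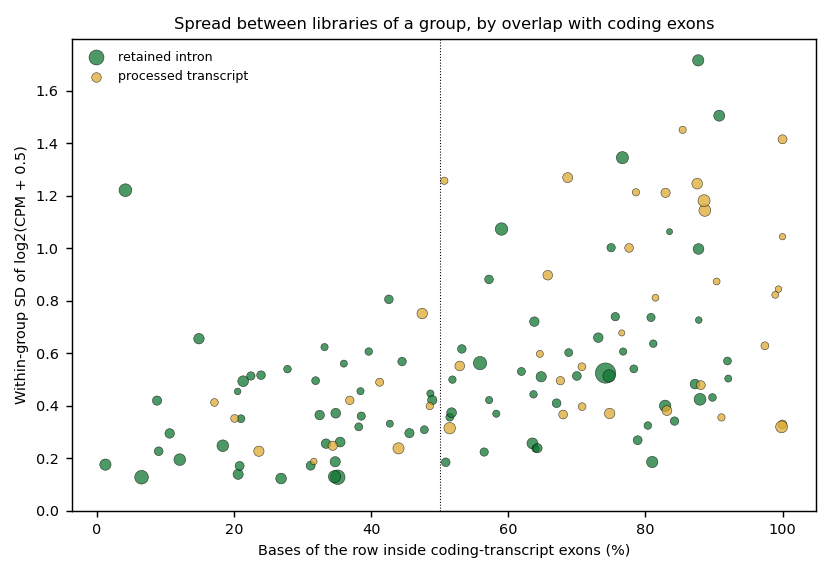
Within-group SD of log2(CPM + 0.5) (y axis) against the percentage of each row's bases in exons of protein-coding transcripts (x axis) for 127 member rows; point size grows with mean counts and the dotted line marks 50%. Medians are 0.356 to the left and 0.551 to the right of the line, and the green point at 4.2% and 1.22 is Ndufb5.

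Summing all rows of a gene lowered the spread in most genes. Of 31 genes with at least 2 rows tested, the sum had a smaller SD than the median row in 23 and than the steadiest row in 10. Tested as sums, no member gene was called by edgeR in any of the 5 comparisons. Of all genes and loci, 0.0529% were called in the hippocampus, 0.0175% in the cortex, 3.5% between regions in WT, 0.193% between regions in 5xFAD mice and 0% in the interaction. An unadjusted p under 0.05 was found for 5 of 59 member genes in the hippocampus (8.47%, against 8.68% of all genes and loci) and for 5 of 59 in the cortex (8.47% against 6.68%). Between regions it was found for 4 of 58 in WT (6.9% against 17.3%) and 5 of 59 in 5xFAD mice (8.47% against 12.5%), and in the interaction for 5 of 59 (8.47% against 7%). Median log2 fold changes of the sums lay between 0.02 and 0.08 in the 5 comparisons.

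Other genes of the pathway were counted in 4 further lists, and 1 row passed the test in 1 comparison. Genes for coenzyme Q, cytochrome c and electron-transferring flavoprotein (18 of 20 with rows), assembly factors outside the rule (29 of 44) and regulators of mitochondrial gene expression (11 of 14) had 0 rows called in all 5 comparisons. With an unadjusted p under 0.05, the first list had 1 to 3 of 30 to 36 rows a comparison (3.33% to 9.68%). The second had 1 to 5 of 39 to 43 (2.56% to 11.6%) and the third 0 to 2 of 14 to 17 (0% to 14.3%). The list for the tricarboxylic acid cycle, which feeds complexes I and II (15 of 16 genes with rows), had 1 to 3 of 42 to 47 (2.33% to 7.14%). Among all rows the share ran from 5.34% to 12.8% over the comparisons. Of the 43 rows of the cycle tested between regions in WT, 1 was called, where 0.986% of all rows were called. This was Dlat ENSMUST00000125919, of the transacetylase of pyruvate dehydrogenase. It had 15, 17 and 12 counts in WT hippocampus and 130, 82 and 52 in WT cortex, at a log2 fold change of -2.73 (SE 0.35, edgeR adjusted p = 0.0327). The call was lost when any of the 6 libraries was left out, with adjusted p-values from edgeR of 0.0591 to 0.149.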

How the data were processed

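RNA sequencing counts were analysed for 12 libraries, grouped by the region and genotype in the labels. The authors deposited whole-number counts per transcript, not normalized. Before that, ribosomal RNA was depleted, stranded libraries were sequenced from both ends, and the submitters' processing notes name Trimmomatic 0.36 and edgeR. For its circular RNA sequencing, the paper also describes the removal of linear RNA, with RNase R. Whether the libraries counted here were treated in that way is not stated, and its part in the levels was not tested. The aligner, the counting program, the build and the annotation are not given in the sources used here. All 12 columns were used. Names and positions came from GENCODE M21 (GRCm38), where 225 identifiers of the table were not found. Assembled transcripts without a gene name took 33.2% to 40.7% of the counts and could not be matched by the rule.

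The tests used edgeR 4.0.16 (R 4.3.3) with filterByExpr, TMM, glmQLFit and glmQLFTest on the 6 libraries of a comparison, or on all 12 for the interaction, with Benjamini-Hochberg adjustment at 0.05. CPM used TMM-scaled library sizes. No pair of libraries in a group agreed within counting noise (chi-square per degree of freedom 20.8 to 33.0 over rows with at least 20 counts in a pair). The functions were tested on simulated counts with the same spread set for every row. That test does not cover rows as unsteady as some of those above. The p-values cover only the spread between these libraries.

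The members, gene lists and markers were chosen with earlier results of these data known. Rows were named by a rule: those called, or otherwise the 3 with the smallest p in each direction, the 2 with the highest mean CPM of each complex, and those with at least 100 counts in some library and at most 3 in another of the same group. Rows named outside the rule were Ndufb10 ENSMUST00000144285, Ndufv3 ENSMUST00000185273, the rows with the highest level per length, the least spread or a printed intron, other rows of Atp5o, and Dlat. The results of 1 gene named by the rule are left out of the text. Also left out are results between regions for rows the rule named there. These are rows of Ndufs7 and Ndufv1 in WT mice, and of Atp5j and Atp5h (ENSMUST00000138779) in 5xFAD mice. Alternatives were DESeq2's size factors, library size only, DESeq2 1.42.0, other filters, a replicate block, 1 fit of all libraries, gene sums, each library left out, and only libraries with Y-linked counts.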

Additional observations from a re-analysis of the deposited data

Results flagged for a closer look

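In 3 member rows the CPM of every 5xFAD library differed from that of every WT library in one direction in the hippocampus and in the opposite direction in the cortex. These were 2.33% of the 129 members tested, where 195 of all 24632 rows tested, or 0.792%, had this pattern. The pattern was picked from the counts, and the edgeR interaction test did not call any of the 3 rows. Atp5j ENSMUST00000146103 had an interaction of -1.28 on the log2 scale (edgeR adjusted p = 0.556), and its counts stand in the report. Atp5o ENSMUST00000132049, a retained-intron row of the stalk subunit, had one of 0.793 (edgeR adjusted p = 0.66), with 66, 60 and 64 counts in 5xFAD against 45, 62 and 42 in WT hippocampus. Ndufv3 ENSMUST00000185273, of an accessory subunit of complex I, had one of 1.09 (edgeR adjusted p = 0.685). It had 10, 11 and 11 counts in WT hippocampus, 12, 11 and 13 in 5xFAD hippocampus, 11, 14 and 8 in WT cortex and 5, 7 and 7 in 5xFAD cortex. At these counts a difference of 1 or 2 reads sets the order of the hippocampal libraries.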

How the results depend on the processing

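The number of member rows called stayed at 0 in the hippocampal comparison of genotypes under all alternatives run. DESeq2 in place of edgeR called 1 member in each of the other 4 comparisons (Atp5o, Ndufaf5, Atp5h and Atp5j, in the order of the report). Leaving out 1 library gave 0 to 1 member calls between the regions in WT and in the interaction, and 0 elsewhere, and the libraries with Y-linked counts alone gave 1 in the interaction (Ndufb5). With the replicate number as a block, 0 members were called in all 5 comparisons. Over all rows, DESeq2 called 127, 102, 743, 366 and 108 rows in the hippocampus, the cortex, between regions in WT, between regions in 5xFAD and in the interaction, where edgeR called 4, 12, 217, 4 and 2. The replicate block left 0 calls in each. Deviations of same-numbered hippocampal and cortical libraries of a genotype had correlations of 0.006 to 0.133, with 1 of 6 over 0.1. Not every library correlated best with its own number, so the numbers were not taken to pair all libraries. The 0.133 was that of 5xFAD library 3, the only 5xFAD number with Y-linked counts, in both regions. With 3 mice per genotype giving both regions, these libraries would be of the same mouse. The sex-linked rows do not separate the other numbers. Apart from the replicate block, the tests between regions and of the interaction left out any pairing. For same-numbered 5xFAD and WT libraries, which are different mice, the correlations were -0.0382 to 0.00752. At least 10 counts in every library gave 1, 1, 355, 25 and 0, and no filter gave 6 in the cortex, 71 between regions in WT and 0 in 5xFAD. A single fit of all libraries gave 2 in the hippocampus, 3 in the cortex and 160 between regions in 5xFAD. Gene sums gave 2 in the cortex, 400 and 22 between regions in WT and in 5xFAD, and 0 in the interaction. Libraries with Y-linked counts gave 14, 0 and 18 in the hippocampus, the cortex and the interaction. Leaving out 1 library gave 0 to 39, 1 to 8, 7 to 63, 0 to 17 and 0 to 7 rows in the same order of comparisons. The cause of these differences was not tested, apart from the smaller number of libraries or the other set of rows tested where the alternative sets it.

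The median log2 fold change over the members kept its sign under all alternatives in the cortex and between regions. In the hippocampus it was -0.0653 with only the libraries that hold Y-linked counts, and 0.0886 with all. In the interaction it was -0.0724 and, without 5xFAD hippocampus 3, -0.0683, beside 0.0301 with all. Scaling by library size alone moved the median of all rows by less than 0.1. The rows named by their p-value, Ndufb10 ENSMUST00000144285, Ndufb5 ENSMUST00000195565 and Dlat kept their direction wherever they were tested. At totals of 3517967 to 5014389 counts per library, the median of the 169 member rows had a mean of 26.2 counts, and that of the 127 tested non-coding rows 40.8.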
